A study of Mus musculus with 6 samples.

Results

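Meiotic break repair and crossover genes were examined here as a set of 8 genes, Spo11, Dmc1, Psmc3ip, Mnd1, Msh4, Msh5, Mlh3 and Hfm1. They were taken by gene name from a table of 54532 mouse genes. Testis RNA had been sequenced from mice 16, 19 and 21 (control-FMT, n = 3) and mice 18, 24 and 31 (alcohol-FMT, n = 3), with 1 library for each mouse. All were C57BL/6 males that arrived at 3 weeks of age, were housed together for 2 weeks and then drank water while 200 μl of fecal suspension was given by gavage 3 times a week for 10 weeks. By design the groups differed in the donors, which drank either water or 10% ethanol. Donors drank for 8 weeks in the series record and 10 weeks in the methods. The paper also lists body weights of the recipients before and after the transfer, and weight was not included in the comparison. Before the transfer, alcohol-FMT mice 24 and 31 were lighter than each sequenced control-FMT mouse, and mouse 18 was not. The recipients themselves drank no ethanol, no antibiotic was given before the transfer, stool came from 5 donors a group, and 3 of the 5 recipients of each group were sequenced.

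In meiosis, programmed DNA breaks are made along the chromosomes, their ends are paired with the homologous chromosome by strand exchange, and some of the resulting joint molecules become crossovers. SPO11 makes the breaks, DMC1 forms the filament that invades the homolog, and PSMC3IP and MND1 form a heterodimer that assists it. MSH4 and MSH5 stabilize the joint molecules, the helicase HFM1 acts on them, and MLH3 takes part in resolving them. In testis these genes are known for spermatocytes, and loss of any of them in mice arrests or damages spermatogenesis.

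All 8 genes were measured in every library, and none changed beyond the spread between mice. Psmc3ip had the highest level, at a mean of 51.2 FPKM over the 6 libraries, followed by Spo11 at 15.6 and Hfm1 at 10.7. FPKM is the number of fragments per kilobase of gene length, relative to library size, as scaled by the authors between libraries. Dmc1 (6.12 FPKM) and Mlh3 (6.07 FPKM) had overlapping ranges, and so had Mnd1 (3.45), Msh4 (3.06) and Msh5 (2.84). The ranges of Psmc3ip, Spo11 and Hfm1 did not overlap with each other or with those of the other genes. Of the 15206 genes with a mean of at least 1 FPKM, 8.91% lay above Psmc3ip, 25.5% above Spo11 and 70.1% above Msh5.

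**Figure D1:**
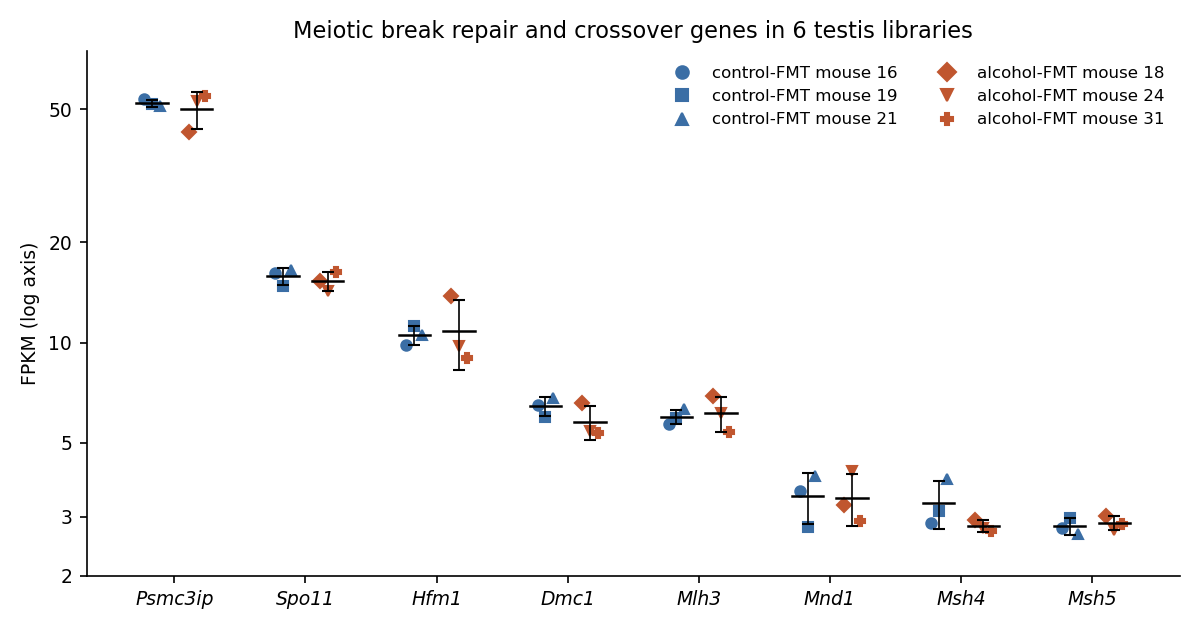
FPKM on a log axis of the 8 genes in each of the 6 testis libraries, with control-FMT mice in blue and alcohol-FMT mice in orange. Horizontal lines are group means and bars are SD (n = 3). Both groups overlap for every gene, and alcohol-FMT mouse 18 is the lowest for Psmc3ip (42.8 FPKM) and the highest for Hfm1 (13.8 FPKM).

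The libraries held 16504096 to 18633124 fragments in genes, and between 44 fragments (Mnd1 in mouse 19) and 1831 fragments (Psmc3ip in mouse 31) lay behind a value of these genes. Marker lists of cell types were read, of which 0 had a marker at 0 in all 6 libraries. The epididymis epithelium list passed too, with Lcn5 at a mean of 0.0224 FPKM, so passing does not identify the tissue. The summed level of 13 genes of the chromosome axis and synaptonemal complex, which are made in the same spermatocytes, was 712 to 779 FPKM in the control-FMT group and 734 to 843 FPKM in the alcohol-FMT group, highest in mouse 18. Of this list, 0 of 13 genes differed in either direction by limma on log2(FPKM + 1) with unadjusted p values of 0.05 or less. The 10 pachytene spermatocyte markers summed to 3118 to 3267 FPKM in the control-FMT group and 3265 to 3670 FPKM in the alcohol-FMT group, highest in mouse 31. Their median log2 fold change was 0.04, and 0 of 10 differed in either direction at that threshold. The 10 round spermatid markers summed to 1191 to 1209 FPKM and 1251 to 1363 FPKM, without overlap, and Tssk1, Tssk2 and Actl7a, 3 of the 10, were higher at that threshold, as were 4.93% of all genes tested. The median log2 fold change of the 10 was 0.02, and Acr, Spaca1, Acrv1 and Crem were below 0. The 10 markers of the epididymis epithelium summed to 6.66 to 7.53 FPKM in the control-FMT group and 7.04 to 21.4 FPKM in the alcohol-FMT group, highest in mouse 31. Of the 10, 4 averaged at least 1 FPKM, and 0 differed in either direction at that threshold. Their log2 fold changes were 1.07 for Crisp1, and 0.23, 0.13 and 0.12 for Defb30, Rnase10 and Cuzd1. The part of these differences in the results below was not tested. In whole testis, fewer spermatocytes and less RNA for each spermatocyte cannot be told apart.

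The groups were compared to ask whether the microbiota of drinking donors altered testicular expression of these genes. limma with a mean-variance trend was fitted to log2(FPKM + 1) of all 15206 genes, with Benjamini-Hochberg adjustment over them, so that log2 fold changes understate those of genes of low level. Of the 8 genes, 0 passed an adjusted p of 0.05, where 0% of all genes tested did, and limma-voom on the fragments also called 0 genes. With unadjusted p values of 0.05 or less, 0 of the 8 lay higher and 0 lay lower with alcohol-FMT by limma and by limma-voom, against 4.93% and 2.34% of all genes tested in limma and 3.47% and 3.81% in limma-voom. In 0 of the 8 genes did the groups not overlap, where the alcohol-FMT values were all above the control-FMT values in 7.76% of genes tested and all below in 5.33%. The median log2 fold change of the 8 genes was −0.03, with 5 below 0 and 3 above, and that of all genes tested was 0.01. The largest in size of the 8 was that of Msh4, at −0.17, and 77.8% of all genes tested were at or under this size.

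**Figure D2:**
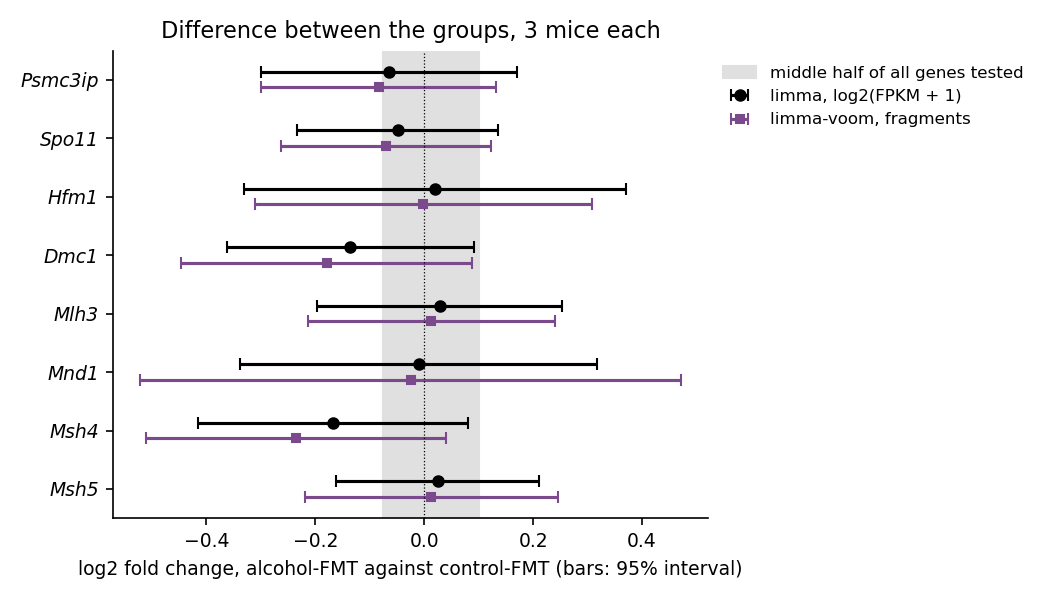
Log2 fold change of alcohol-FMT against control-FMT for each of the 8 genes, with 95% intervals, from limma on log2(FPKM + 1) (black) and from limma-voom on fragments (purple). The grey band is the interquartile range of all genes tested. All 16 intervals include 0, and the widest is that of Mnd1 in limma-voom.

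Spo11 (ENSMUSG00000005883, chromosome 2, 172977700 to 172993576, plus strand, GRCm38), which encodes the topoisomerase-like protein that cuts DNA to start recombination, showed no difference between the groups beyond the spread. It was at 16.2, 14.8 and 16.6 FPKM in control-FMT mice 16, 19 and 21, against 15.3, 14.3 and 16.3 FPKM for alcohol-FMT mice 18, 24 and 31. The lowest and the highest value came from different groups and the rest were mixed. The log2 fold change was −0.05 (SE 0.0781, limma adjusted p = 0.917), or −0.00457 without alcohol-FMT mouse 24 and −0.09 without control-FMT mouse 19. The 95% interval of the fold change in limma-voom was 0.834 to 1.09, which was the narrowest of the 8 genes. Mouse Spo11 is known for a long splice form made early in meiotic prophase and a short form made later, which differ by exon 2. Of the 3 coding transcripts in GENCODE M21, 1 held this exon of 114 bases and 2 did not. The table gives 1 value for each gene, so the forms were summed in it. The exon (chr2:172981979-172982092, in capitals, with 15 bases of each neighboring exon) and the junction that skips it (exon 3 in capitals) are shown because fragments over them are what would tell the forms apart.
Spo11 exon 2 with flanks: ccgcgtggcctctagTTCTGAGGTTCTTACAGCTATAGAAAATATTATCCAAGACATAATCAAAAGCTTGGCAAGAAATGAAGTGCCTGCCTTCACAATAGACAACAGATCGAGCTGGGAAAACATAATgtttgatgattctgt
Spo11 exon 1 to exon 3 junction: ccgcgtggcctctagGTTTGATGATTCTGT

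Dmc1 (ENSMUSG00000022429, chromosome 15, 79561497 to 79605109, minus strand), the meiosis-specific recombinase, was lower by 10.1% in the alcohol-FMT group on average, which was within the spread between mice. It was at 6.51, 5.98 and 6.83 FPKM in control-FMT mice 16, 19 and 21, against 6.58, 5.45 and 5.34 FPKM for alcohol-FMT mice 18, 24 and 31. Mice 24 and 31 lay below every control-FMT mouse, and mouse 18 lay between control-FMT mice 16 and 21. The log2 fold change was −0.14 (SE 0.0962, limma adjusted p = 0.806). Without alcohol-FMT mouse 18 it was −0.22, with an unadjusted p of 0.0338 in limma, where 5.57% of all genes were lower at that threshold. The 239 to 287 fragments of Dmc1 in each library gave a counting error of about 6.15% for a single value, where the SD was 6.66% of the mean in the control-FMT group and 11.8% in the alcohol-FMT group.

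Psmc3ip (ENSMUSG00000019303, chromosome 11, 101091823 to 101095436, minus strand) and Mnd1 (ENSMUSG00000033752, chromosome 3, 84087933 to 84155786, minus strand) encode the partners of the heterodimer that assists strand exchange. Psmc3ip was at 53.7, 51.8 and 51.3 FPKM in control-FMT mice 16, 19 and 21, against 42.8, 52.9 and 54.8 FPKM for alcohol-FMT mice 18, 24 and 31. Mouse 18 was thus the lowest of all 6 and mouse 31 the highest, and the SD was 12.8% of the mean in the alcohol-FMT group against 2.40% in the other (n = 3 each). Its log2 fold change was −0.07 (SE 0.0997, limma adjusted p = 0.915), and 0.04 without mouse 18. Mnd1 was at 3.60, 2.81 and 3.98 FPKM in the control-FMT group and at 3.25, 4.11 and 2.92 FPKM in the alcohol-FMT group, from 44 to 67 fragments in each library. The groups were mixed, and the log2 fold change was −0.01 (SE 0.139, limma adjusted p = 0.990). The interval of the fold change of Mnd1 in limma-voom ran from 0.697 to 1.39. Its SD was 17.3% and 17.9% of the mean in the groups, and the counting error of a single value was 13.7%.

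Neighboring or similar genes limit the counting of this heterodimer's transcripts. Mlx, a transcription factor gene on the opposite strand, overlaps 385 bases of the exons of Psmc3ip at its 3′ end (chr11:101091823-101092207), or 21.2% of its length. Mlx had 90 to 104 fragments in each library and Psmc3ip 1313 to 1831. The library kit is not stated to keep strand, so fragments of the shared stretch could come from either gene. The pseudogene Mnd1-ps shares 40.8% of the stretches of 50 bases in the Mnd1 transcript. It held 0 to 2 fragments in each library, and how fragments that fit several places were counted is not given in the sources used here. For the other 6 genes, 0 such stretches of the longest coding transcript occurred in a transcript of another gene of GENCODE M21. The level of Mnd1, and that of Psmc3ip to a lesser degree, is therefore uncertain.

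Msh4 (ENSMUSG00000005493, chromosome 3, 153857149 to 153906138, minus strand) and Msh5 (ENSMUSG00000007035, chromosome 17, 35028605 to 35046745, minus strand) encode the MutS homologs that clamp joint molecules as a heterodimer. Msh4 was at 2.88, 3.12 and 3.90 FPKM in control-FMT mice 16, 19 and 21, against 2.94, 2.78 and 2.72 FPKM for alcohol-FMT mice 18, 24 and 31. Control-FMT mouse 21 stood above the other 5 mice, and mouse 18 lay above control-FMT mouse 16. The log2 fold change was −0.17 (SE 0.105, limma adjusted p = 0.785), which was the smallest p of the 8 genes, and −0.07 without control-FMT mouse 21. Msh5 varied little, at 2.79, 2.98 and 2.66 FPKM in the control-FMT group and at 3.02, 2.74 and 2.87 FPKM in the alcohol-FMT group. For Msh5 the log2 fold change was 0.02 (SE 0.0792, limma adjusted p = 0.965), and its SD of 4.81 to 5.75% of the mean was under the counting error of 5.98%.

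Hfm1 (ENSMUSG00000043410, chromosome 5, 106840192 to 106926321, minus strand), a DNA helicase needed for crossover formation, was the most variable of the 8 genes in the alcohol-FMT group. It was at 9.84, 11.2 and 10.5 FPKM in control-FMT mice 16, 19 and 21, against 13.8, 9.76 and 8.99 FPKM for alcohol-FMT mice 18, 24 and 31. Mouse 18 lay above all control-FMT mice, and mice 24 and 31 lay below them. The control mean was 10.5 ± 0.692 FPKM (SD, n = 3), that of alcohol-FMT mice was 10.9 ± 2.59 FPKM (SD, n = 3), and the log2 fold change was 0.02 (SE 0.149, limma adjusted p = 0.982), or −0.15 without mouse 18. Mlh3 (ENSMUSG00000021245, chromosome 12, 85234520 to 85270599, minus strand), which encodes the MutL homolog of the crossover endonuclease, was at 5.72, 5.93 and 6.31 FPKM in the control-FMT group and at 6.89, 6.13 and 5.41 FPKM in the alcohol-FMT group. Its highest and its lowest value were both in the alcohol-FMT group, in mice 18 and 31. The log2 fold change of Mlh3 was 0.03 (SE 0.0955, limma adjusted p = 0.967), or −0.05 without mouse 18.

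The genes did not vary together as a block across the libraries. On log2(FPKM + 1), mouse 18 deviated from the mean of the 6 libraries by 0.35 for Hfm1, 0.16 for Mlh3 and 0.10 for Dmc1, and by −0.25 for Psmc3ip. Mouse 31 deviated the other way, with −0.22 for Hfm1, −0.14 for Mlh3, −0.16 for Dmc1 and 0.10 for Psmc3ip. Control-FMT mouse 21 had the highest Spo11, Dmc1 and Msh4 of all libraries and the lowest Msh5. Hfm1 and Mlh3 are long genes in the table (6687 and 7554 bases) and Psmc3ip is short (1818 bases). Msh4, also long (6895 bases), deviated by −0.04 in mouse 18 and −0.12 in mouse 31. Mnd1, the shortest (875 bases), deviated by −0.05 in mouse 18 and −0.17 in mouse 31. Libraries differed by gene length as a whole. Over all genes tested, the median deviation of mouse 18 was 0.04 for 4359 genes of 5000 bases or more and −0.03 for 5301 genes under 2000 bases, and that of mouse 31 was −0.05 and 0.07. With each library's trend against length removed, the log2 fold change was 0.04 for Hfm1 and −0.11 for Psmc3ip. The part of gene length in the values of single mice was not tested further.

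**Figure D3:**
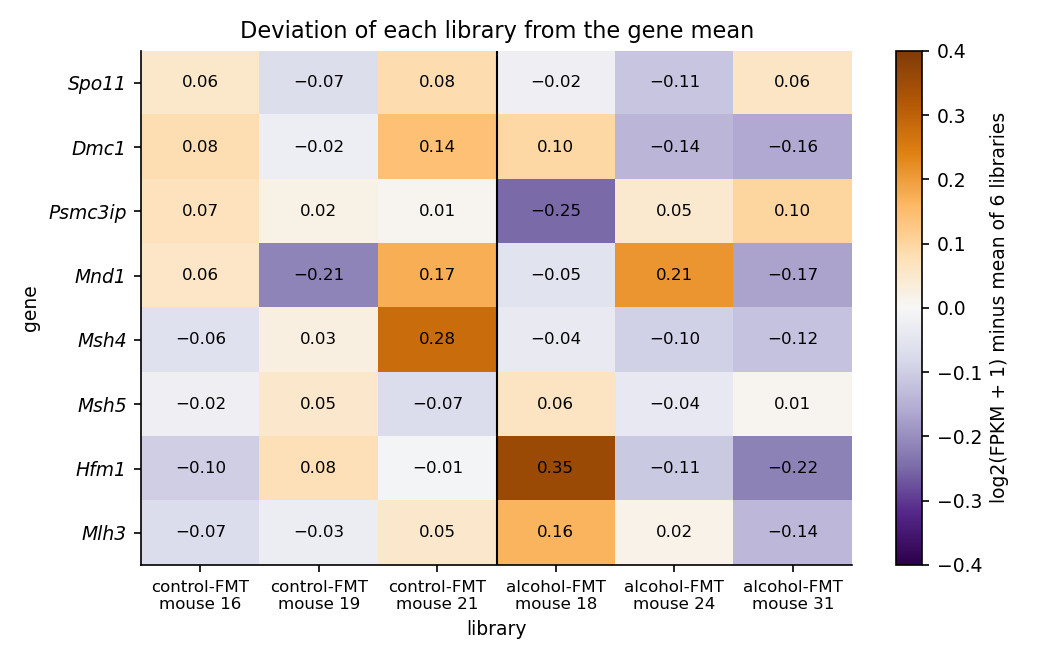
Deviation of log2(FPKM + 1) in each library from the mean of the 6 libraries, by gene (rows) and mouse (columns). Alcohol-FMT mouse 18 is high for Hfm1 (0.35) and low for Psmc3ip (−0.25), and control-FMT mouse 21 is high for Msh4 (0.28).

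The promoter windows of Msh4, Hfm1 and Psmc3ip are shown because these genes had the largest difference between the groups and the largest deviations in a single library. RefSeq (GRCm38.p6) gave windows from 250 bases before to 50 bases after the start site for 7 of the 8 genes, and none was matched for Spo11. They were searched on both strands for letters bound by regulators of meiotic or cell cycle genes, which were AACNGTT and CNGTTA for MYB proteins, TTNCCGC for E2F, TGACGTCA for CREM, CCAAT for NF-Y, CNCCTCAG for STRA8 and CACGTG for E-box proteins. CNGTTA can overlap AACNGTT, although no window of the 7 held the latter. Capitals mark the matches. The windows lie on the minus strand at chr3:153904842-153905141 for Msh4, chr5:106925841-106926140 for Hfm1 and chr11:101095386-101095685 for Psmc3ip. Those of Msh4 and Hfm1 lie wholly inside the longer Ensembl genes, so their matches are downstream of the Ensembl 5′ ends. Positions of matches are counted from the RefSeq start site.
Msh4: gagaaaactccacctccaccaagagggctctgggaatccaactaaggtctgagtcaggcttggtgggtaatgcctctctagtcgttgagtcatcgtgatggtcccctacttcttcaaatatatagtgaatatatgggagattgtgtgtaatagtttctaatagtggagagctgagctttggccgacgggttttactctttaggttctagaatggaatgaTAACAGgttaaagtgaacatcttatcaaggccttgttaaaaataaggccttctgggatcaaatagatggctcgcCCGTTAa
Hfm1: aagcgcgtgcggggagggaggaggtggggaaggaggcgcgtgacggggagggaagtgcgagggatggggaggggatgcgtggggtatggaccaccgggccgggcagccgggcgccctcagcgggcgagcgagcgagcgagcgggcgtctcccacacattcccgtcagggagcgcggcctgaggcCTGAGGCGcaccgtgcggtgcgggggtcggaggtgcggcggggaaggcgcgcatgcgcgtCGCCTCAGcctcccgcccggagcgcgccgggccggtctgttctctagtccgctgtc
Psmc3ip: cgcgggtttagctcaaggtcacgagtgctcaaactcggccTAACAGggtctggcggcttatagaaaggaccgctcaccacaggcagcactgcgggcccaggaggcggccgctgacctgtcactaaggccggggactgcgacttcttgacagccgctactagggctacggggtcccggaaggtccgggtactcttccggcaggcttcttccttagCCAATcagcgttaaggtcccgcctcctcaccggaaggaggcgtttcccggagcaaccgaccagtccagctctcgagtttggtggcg

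Of these windows, that of Hfm1 held the STRA8 letters, at −66 and −6 from the start site. Msh4 held CNGTTA at −31 and 43, and Psmc3ip held it at −210 with CCAAT at −36. Over the 7 windows, STRA8 letters occurred in 2 (Hfm1 and Msh5), the MYB letters CNGTTA in 2 (Msh4 and Psmc3ip), CCAAT in 3 (Psmc3ip, Mlh3 and Msh5), E2F letters in 1 (Msh5), and the others in 0. Those of Mnd1 and Dmc1 held none of them. Of the windows of 27025 genes, 7.97% held the STRA8 letters, 23.2% CNGTTA, 37.9% CCAAT and 9.30% the E2F letters. A match is a run of letters and was not tested as a binding site.

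The order of levels changed when another gene length was used. The length in the table equals that of all annotated exons of a gene, introns retained in some transcripts included, and is 2.29 times that of the longest coding transcript for Spo11, 2.07 times for Msh4 and 1.91 times for Msh5. For Mnd1, with 1 annotated transcript, both lengths are 875 bases. Per kilobase of the longest coding transcript, a setting chosen after seeing the data, Spo11 was at 35.7, Msh4 at 6.34 and Msh5 at 5.44 on average, and Mnd1 stayed at 3.45. Mnd1 then had the lowest level of the 8, and its range (2.81 to 4.11) no longer overlapped with those of Msh4 (5.63 to 8.09) and Msh5 (5.09 to 5.77). These values assume that every fragment came from that transcript. The length is the same in all libraries and leaves the ratio of the groups as it was.

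**Figure D4:**
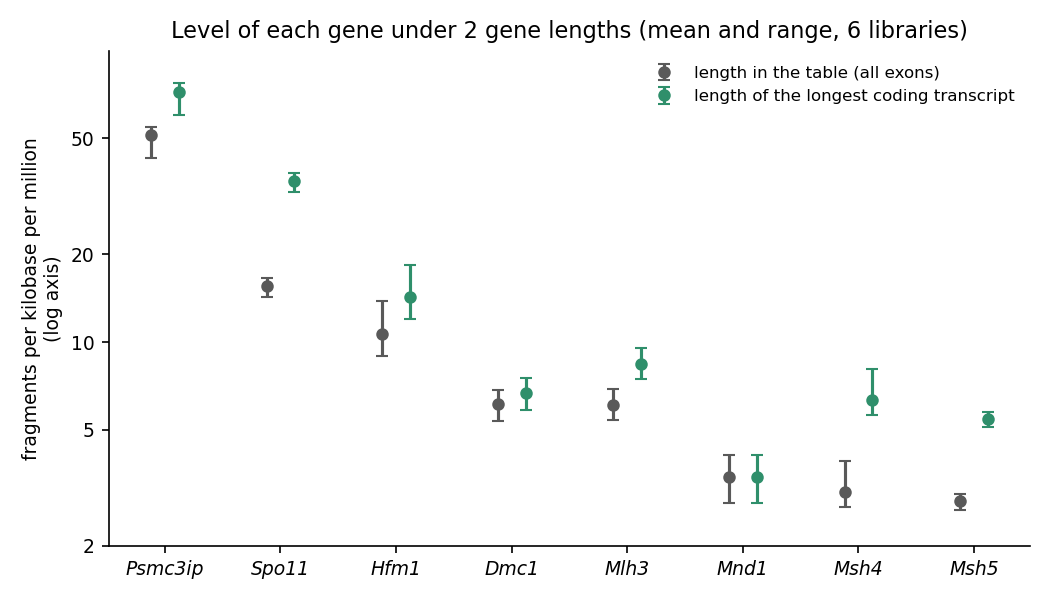
Mean level of each gene over the 6 libraries, with the range as bars, on a log axis of FPKM, for the gene length of the table (grey) and for the longest coding transcript (green). The range of Mnd1 (mean 3.45) overlaps with those of Msh4 and Msh5 in grey and lies below both in green.

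Levels of partners were compared as ratios within each library, which removes the scaling of the library. Psmc3ip exceeded Mnd1 in FPKM by a factor of 12.9 to 18.8 in every library. This factor depends on the gene length used, and the level of Mnd1 is uncertain as described above. Per kilobase of the longest coding transcript, Psmc3ip averaged 72.1 and Mnd1 3.45. The ratio of Msh4 to Msh5 was 1.03, 1.05 and 1.47 in control-FMT mice 16, 19 and 21 and 0.975, 1.01 and 0.947 for alcohol-FMT mice 18, 24 and 31, so that the groups did not overlap. The difference of its mean log2 ratio was −0.25 (exact permutation test over 20 assignments, two-sided p = 0.1, the smallest possible, and 0.4 adjusted over the 4 ratios computed), and −0.09 without control-FMT mouse 21. The ratio of Psmc3ip to Mnd1 did not differ between the groups beyond its spread, with a difference on the log2 scale of −0.05 (exact permutation test, two-sided p = 0.9, and 0.9 adjusted over the 4 ratios).

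Other genes of meiotic recombination were taken from a list of 65 names, of which 59 are in the table, with 54 at a mean of at least 1 FPKM. The 6 names not found include second names of genes that are in the table, such as Top6bl for Gm960 and Iho1 for Ccdc36. Of the 54, none (0) reached an unadjusted p of 0.05 in limma in either direction, and in limma-voom 2 of 54 (Atm and Brca1) were lower, where 3.81% of all genes were. Their median log2 fold change was −0.03, with 36 of 54 (66.7%) below 0, where 47.5% of all genes tested were below 0. In 3 of them (Mcm8, Fancm and Brca1) the alcohol-FMT values were all below those of the controls, and in 0 all above, where 5.33% and 7.76% of all genes tested did so. The 54 genes run from 732 bases (Zswim7) to 13643 bases (Brca2). Over all genes tested of 5000 bases or more, median deviations were 0.04, −0.04 and −0.05 in alcohol-FMT mice 18, 24 and 31. In control-FMT mice 16, 19 and 21 they were −0.004, 0.04 and 0.008. The part of gene length in the share below 0, here and by role, was not tested. Brca1, a DNA repair gene that acts in meiosis and in somatic cells, had the smallest p, with a mean of 3.19 ± 0.154 FPKM (SD, n = 3) for controls against 2.67 ± 0.208 FPKM (SD, n = 3) for alcohol-FMT mice. The log2 fold change was −0.19 (limma unadjusted p = 0.0513, adjusted p = 0.689). Without alcohol-FMT mouse 18, 7 were lower (Ankrd31, Rad50, Rbbp8, Atm, Brca2, Spata22 and Brca1) and 2 higher (Hsf2bp and Mus81), where 5.57% of all genes were lower and 12.2% higher.

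**Figure D5:**
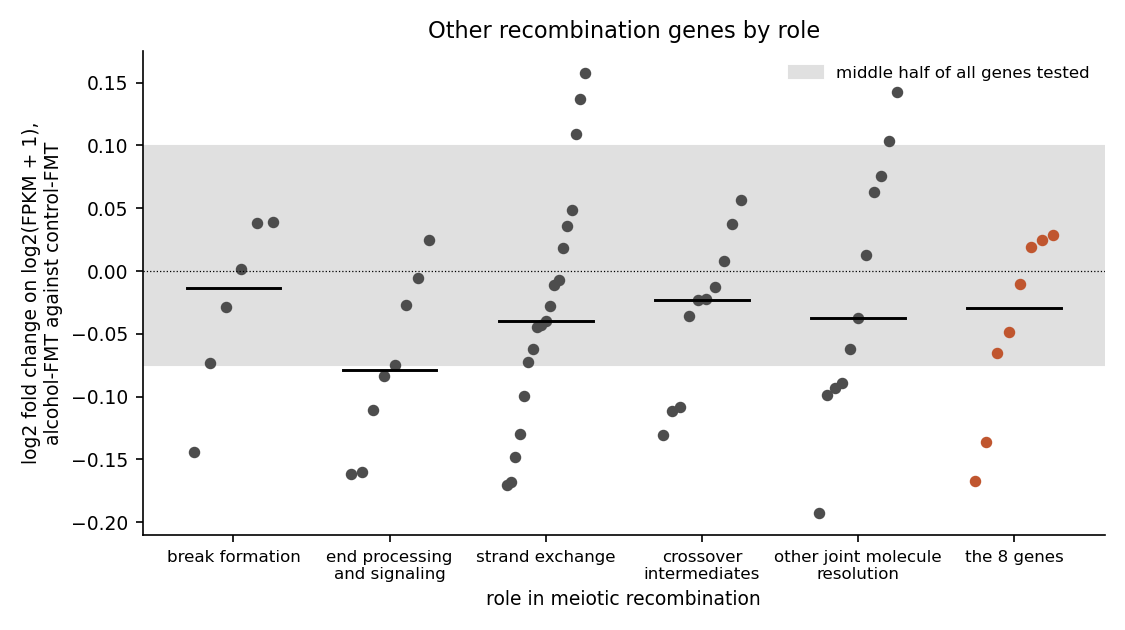
Log2 fold changes on log2(FPKM + 1) of 54 other recombination genes by the role they were listed under, and of the 8 genes (orange). Each point is a gene and lines are at the medians. The grey band is the interquartile range of all genes tested. The lowest point is Brca1 (−0.19), and the highest is Rpa2 (0.16).

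By role, the 6 genes of break formation had a median log2 fold change of −0.01, with 3 below 0. The partner subunit gene Top6bl (Gm960 in the table) had a log2 fold change of −0.03, Rec114 0.04, Iho1 (Ccdc36 in the table) 0.00198 and Mei1 0.04. Prdm9, whose product marks the break sites, had −0.07. The lowest of the role was Ankrd31, at −0.14, or −0.31 without mouse 18 (unadjusted p = 0.0118 in limma). Mei4 was under the minimum, at 0.0925 to 0.186 FPKM in all libraries. The 8 genes of end processing and signaling had a median of −0.08, with 7 below 0, among them Atm, the kinase that answers breaks (−0.16), and Rad50 (−0.16).

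The 19 genes of strand exchange had a median of −0.04, with 13 below 0 and 6 above. Brca2, which acts in filament loading, had a log2 fold change of −0.17, and the meiotic partners Meiob and Spata22, which bind the exposed strand, had −0.13 and −0.17. At the other end, Rpa2 and Rpa1, subunits of the general RPA complex that covers exposed strands, had 0.16 and 0.11, and Hsf2bp had 0.14. Spata22 was at 3.90, 3.59 and 3.66 FPKM in control-FMT mice 16, 19 and 21, against 4.61, 2.36 and 2.91 FPKM for alcohol-FMT mice 18, 24 and 31, with mouse 18 the highest of all 6, as it was for Hfm1. The 10 genes of crossover intermediates had a median of −0.02, with 7 below 0. The regulators Rnf212 and Ccnb1ip1 (HEI10) had −0.11 and −0.02, and Tex11, an X-linked meiotic gene, had −0.13, and the kinase gene Cdk2 had the highest value (0.06). The 11 genes listed under other joint molecule resolution had a median of −0.04, with 6 below 0. They ran from Brca1 (−0.19) to the nuclease subunit gene Mus81 (0.14). The list placed Brca1 in this group, although it is a general DNA repair gene. None of the genes named here for their role passed an unadjusted p of 0.05 with all 6 libraries in limma, and the smallest adjusted p of the list was that of Brca1.

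The genes most like the mean profile of the 8, each standardized over the 6 libraries, were Cdc42se2 (Pearson's r = 0.999), Tktl1 (0.990), Serinc1 (0.990), Slc9a2 (0.989) and Tle4 (0.984). With 6 libraries and 15206 genes such values are a description only. The profile itself was highest in mouse 21 (0.53) and lowest in mouse 31 (−0.46), and so were all 5 genes, which were chosen for likeness to it. The sign of their log2 fold changes (−0.19 to −0.05) follows from the same choice.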

How the data were processed

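Testis RNA libraries (Illumina TruSeq RNA kit) were mapped by the authors with TopHat2 according to the methods, whereas HISAT2 2.0.5 and both mm10 and mm8 stand in the notes of the submitters. The FPKM values were computed by the authors and deposited as 1 table of 54532 genes with gene lengths, 6 columns and 0 columns of other samples. Multiplied by gene length, 100% of values came within 0.01 of whole fragments, which were recovered from them.

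Genes averaging 1 FPKM or more were fitted by limma 3.58.1 (R 4.3.3, trend option) after adding 1 and taking log2. Alternatives were limma-voom with TMM factors, library totals, no filter, at least 10 fragments in 3 libraries, a pseudocount of 0.1, protein-coding genes, removal of length trends, a robust prior and leaving out each library. Code was tested on simulated data. The 8 genes and the lists were chosen with earlier results of these data known. Named genes were the 8, fixed partners, list genes with unadjusted p of 0.05 or less and the 5 most similar genes; others were named after their values were seen. List names were matched by symbol, with synonyms from RefSeq (GRCm38.p6). Positions are those of the table on GRCm38, and exons are those of GENCODE M21. Ratios were tested over all assignments of the libraries, and some items, among them 2 of the 4 ratios, are not reported here (NumPy 2.4.6, pandas 2.3.3).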

Additional observations from a re-analysis of the deposited data

How the results depend on the processing

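The count of 0 of 8 (unadjusted p of 0.05 or less) held in every alternative except without alcohol-FMT mouse 18, where 1 (Dmc1) was lower, so that leaving out libraries gave 0 to 1. Dmc1 (−0.22 to −0.09), Msh4 (−0.24 to −0.07) and Spo11 (−0.09 to −0.00457) stayed below 0 in all 14 alternatives. The sign of the others turned, with Hfm1 at −0.00136 in limma-voom, −0.00721 with library totals and −0.15 to 0.13 without single libraries. Without single libraries Mnd1 ranged from −0.12 to 0.0734, Psmc3ip from −0.13 to 0.0424, Mlh3 from −0.0458 to 0.10, Msh5 from −0.00396 to 0.0568, and the log2 ratio difference of Psmc3ip to Mnd1 from −0.23 to 0.0833. Of the other recombination genes, 2 were lower in limma-voom and 0 to 7 without single libraries. With library totals, no filter, a pseudocount of 0.1 or protein-coding genes alone, 1 was lower (Brca1). In the other direction, 1 was higher with no filter or the filter on fragments, and 0 to 2 without single libraries. Over all genes, the 750 higher and 356 lower (67.8% higher) were 450 and 515 under library totals (46.6%), 527 and 580 in limma-voom (47.6%), 517 and 514 with length trends removed (50.1%), 858 and 580 with the filter on fragments and 1107 and 909 with no filter, and without single libraries 409 to 1855 and 224 to 849. Adjusted calls were 0 in all fits but that without alcohol-FMT mouse 31, giving 0 to 2 without single libraries. Each such fit leaves 2 libraries in a group. The cause of these changes was not tested. No paired analysis was possible because the groups share no replicate numbers.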
